A study of Mus musculus with 10 samples.

Results

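The genes described here are 9 receptors and regulators that guide lymphocytes into and out of lymphoid organs, namely Ccr7, Ccr9, Cxcr4, Ccr4, Ccr8, S1pr1, Klf2, Cd44 and Selplg. They were chosen by name, through probe sets annotated with a single gene symbol, and all 9 were represented, each by 1 probe set, among 19937 genes so annotated. Their transcript levels were measured on microarrays of primary mediastinal T cell lymphomas from 10 NPM-ALK transgenic mice, 1 array per mouse. WASP-deficient lymphomas came from 5 transgenic mice that also lacked WASP, described as either homozygous females or hemizygous males. Sex-linked transcripts on these 5 arrays, given below, were those of males. WASP-intact lymphomas came from 5 transgenic mice with wild-type WASP. Both groups shared the NPM-ALK transgene and the C57BL/6 background, and tumours arose spontaneously at 4 to 5 months of age without treatment. NPM-ALK is a fusion kinase found in anaplastic large cell lymphoma, and WASP, encoded by Was, drives branched actin assembly in blood cells. The sources used here state neither the promoter of the transgene nor the sex of single animals. Levels are log2 of RMA-normalised intensity, and differences are WASP-deficient minus WASP-intact on the log2 scale. RNA came from whole tumours, so that fewer cells of a type and less RNA per cell cannot be told apart.

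Lymphocytes leave the blood by rolling on selectins, stopping in response to chemokines and crawling across the vessel wall, and they leave tissues again along a gradient of sphingosine 1-phosphate. Chemokine receptors and the sphingosine 1-phosphate receptor couple to inhibitory G proteins, and the movement they trigger needs actin assembly, in which WASP takes part. In the thymus, CXCR4 and CCR9 place immature cells, CCR7 draws maturing cells to the medulla, and S1PR1, under the control of the transcription factor KLF2, lets mature cells exit.

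Promoter sequences are shown for the genes on which the patterns below turn, since Ccr8, Ccr9 and Klf2 reached their highest level on the same array and Cd44 was the widest-moving gene on the arrays with high Cd2. Each is the 250 bases before the annotated start in RefSeq, build GRCm38.p6, written 5′ to 3′ on the strand of the gene, and 6 of the 9 genes had an entry. Capitals mark CACCC or its reverse complement GGGTG, the core of the sites that Krüppel-like factors such as KLF2 bind.
Ccr8, chr9:120091883-120092132, plus strand: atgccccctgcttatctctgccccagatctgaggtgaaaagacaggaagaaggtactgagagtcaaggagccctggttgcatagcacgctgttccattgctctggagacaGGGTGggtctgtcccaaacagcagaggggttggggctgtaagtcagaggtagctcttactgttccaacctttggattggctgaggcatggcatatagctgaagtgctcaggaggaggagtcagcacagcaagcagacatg
Ccr9, chr9:123766961-123767210, plus strand: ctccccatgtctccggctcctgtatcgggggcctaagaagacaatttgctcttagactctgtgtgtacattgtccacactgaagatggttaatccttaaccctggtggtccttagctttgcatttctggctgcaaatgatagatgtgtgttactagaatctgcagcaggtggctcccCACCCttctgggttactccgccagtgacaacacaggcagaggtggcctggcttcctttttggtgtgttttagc
Klf2, chr8:72318812-72319061, plus strand: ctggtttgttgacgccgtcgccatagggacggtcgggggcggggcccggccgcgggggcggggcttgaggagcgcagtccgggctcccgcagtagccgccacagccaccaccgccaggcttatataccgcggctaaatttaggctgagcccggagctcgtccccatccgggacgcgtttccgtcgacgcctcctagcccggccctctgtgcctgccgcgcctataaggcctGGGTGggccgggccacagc
Cd44, chr2:102901666-102901915, minus strand: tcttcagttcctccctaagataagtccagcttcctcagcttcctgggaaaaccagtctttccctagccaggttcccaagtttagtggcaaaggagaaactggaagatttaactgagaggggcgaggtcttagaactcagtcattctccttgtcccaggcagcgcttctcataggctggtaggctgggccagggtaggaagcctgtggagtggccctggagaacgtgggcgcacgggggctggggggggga
The motif occurred 1 time each before Ccr8, Ccr9 and Klf2 and 0 times before Cd44, counted on both strands. It also occurred 1 time each before Ccr4 and Cxcr4, whose windows are not printed and whose highest levels were on other arrays. Of 32851 promoter windows of that length, 52.0% hold it. The Klf2 window was 71.2% G or C, against a median of 52.4% over all windows, and held 2 copies of the motif GGGCGG, read on both strands, which 32.7% of windows hold. These matches describe the letters of the windows and not binding.

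Was, the gene targeted in the cross, lay between 7.92 and 8.20 in WASP-deficient and between 9.11 and 9.34 in WASP-intact lymphomas. Its difference was -1.14 (SE 0.08, limma adjusted p = 0.00088), and it was the 1 gene of 12670 tested that passed. It no longer passed with a replicate block (-1.14, adjusted p = 0.136) or with the Xist level as a covariate (-1.06, adjusted p = 0.378). Markers of T cells were present on all arrays, with Cd3e between 12.06 and 12.59 and Thy1 between 11.86 and 12.31. Arrays had median linear intensities of 116.7 to 122.7, and precision is limited by how many arrays there are. Cd2, an adhesion receptor of T cells, split the arrays at a log2 level of 9. WASP-deficient array 1 and WASP-intact arrays 4 and 5 were Cd2-high, the lowest of them at 11.18, and the other 7 arrays were Cd2-low, the highest of them at 6.90. The Cd2 split was read from the data and is no group of the study, so it is described with values and no test. On those 3 arrays Cd3d, a chain of the T cell receptor complex, was at 5.26 to 6.47, against 8.96 to 10.08 on the Cd2-low arrays, while Tnfrsf8, which encodes the lymphoma marker CD30, was at 10.31 to 10.50, against 7.96 to 9.01. Xist, expressed from an inactive X chromosome, lay between 4.50 and 5.58 in all WASP-deficient lymphomas. WASP-intact array 3 was also low, at 4.40, and its other 4 group members lay between 11.52 and 11.90. The Y-linked gene Kdm5d lay between 8.20 and 9.19 in all WASP-deficient lymphomas. In WASP-intact lymphomas it was at 8.68 on array 3 and between 4.61 and 5.51 on the other 4. By these transcripts all 5 WASP-deficient lymphomas and WASP-intact array 3 read as male, and the other 4 as female. Genotype and these markers of sex thus moved together on 9 of 10 arrays. Genotype values with the Xist level as a covariate are given where they turn in sign or move by more than 1.5 times.

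No homing or egress gene passed the test for a difference between the genotypes. Of the 9 genes, 8 lay above the filter on dim probe sets (a mean log2 level of 6.35) and were tested, and 0 of 8 passed limma, against 0.00789% of all genes tested, nor had any an unadjusted p under 0.05, against 2.89% of all genes. Ccr8 lay below the filter and is described without a test. The differences of the 8 ran from -0.69 to 0.82 with a median of -0.09, against a median of -0.0038 over all 12670 genes, and 3 were above and 5 below 0. The adjusted p was 0.999 for each of the 8 (limma, Benjamini-Hochberg over all genes tested). The ranges of the genotypes overlapped for all 9 genes, and over all genes tested 0.568% did not overlap. Intervals were wide for genes that varied much within a genotype, so that a difference of more than log2 1 lies within them for Ccr7, Ccr9, Ccr4 and Cd44.

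**Figure D1:**
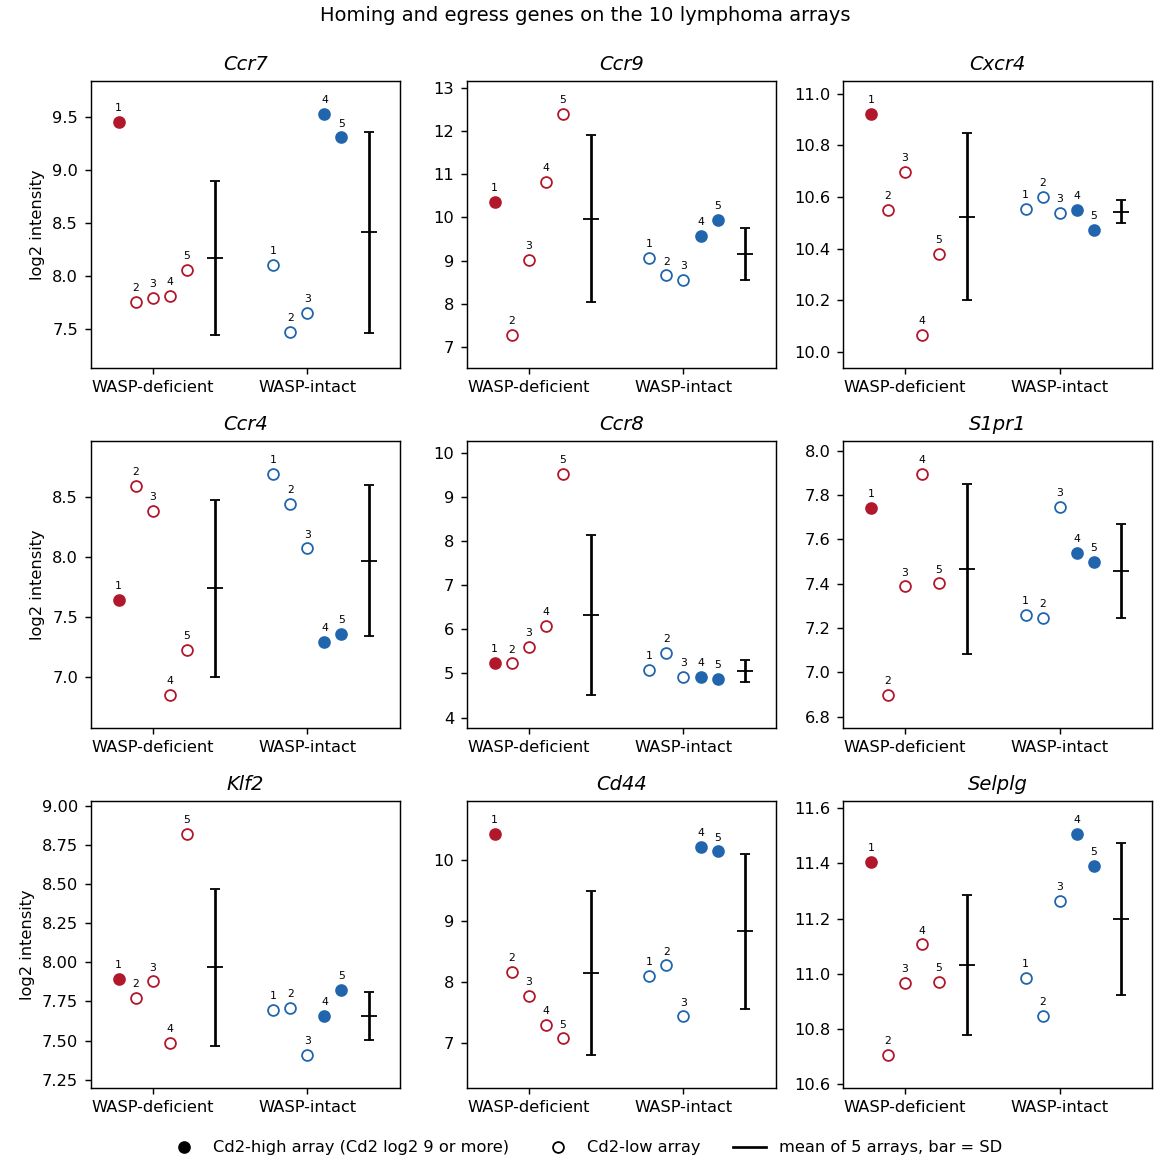
Level of each of the 9 genes (log2 intensity, vertical axis) on the 5 WASP-deficient (red, left) and 5 WASP-intact (blue, right) arrays, numbered by replicate, with filled points for Cd2-high arrays and the mean with its SD beside each group. Ccr7, Cd44 and Selplg are highest on the 3 filled points, and Ccr8, Ccr9 and Klf2 on WASP-deficient array 5.

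Ccr7 encodes the receptor for CCL19 and CCL21, which brings T cells to lymph nodes and to the thymic medulla (probe set 10390763). It was at 9.46, 7.75, 7.79, 7.81 and 8.05 on WASP-deficient arrays 1 to 5, against 8.10, 7.47, 7.65, 9.53 and 9.31 on WASP-intact arrays 1 to 5. High values occurred in both genotypes, on WASP-deficient array 1 and WASP-intact arrays 4 and 5, and the groups overlapped. The mean was 8.17 ± 0.73 in WASP-deficient and 8.41 ± 0.95 in WASP-intact lymphomas (SD, n = 5 each), a difference of -0.24 (95% interval -1.30 to 0.81, limma adjusted p = 0.999). Within the 7 Cd2-low arrays the difference was 0.11, and with the Xist level as a covariate it was 0.39, neither of which passed.

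The 3 high values of Ccr7 were those of the 3 Cd2-high arrays, at 9.31 to 9.53, against 7.47 to 8.10 on the Cd2-low arrays. The lowest Cd2-high array stood 1.21 above the highest Cd2-low array on the log2 scale, which is 2.31-fold in intensity. Over all genes tested 1.61% were higher on the Cd2-high arrays with a gap of at least 1. The 3 tested genes whose centred levels over the 10 arrays lay nearest to those of Ccr7 were Cited4, Smox and Tmem159, with root mean square differences of 0.15, 0.16 and 0.18. Each of them was likewise higher on all 3 Cd2-high arrays, Cited4 for example at 9.24 to 9.47 against 7.44 to 7.76. This follows from choosing them by nearness to Ccr7 on the same arrays and is no separate result.

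Ccr9 encodes the receptor for CCL25, a chemokine of thymic and gut epithelium (probe set 10590620). It was at 10.36, 7.29, 9.01, 10.81 and 12.39 on WASP-deficient arrays 1 to 5, against 9.07, 8.66, 8.55, 9.57 and 9.94 on WASP-intact arrays 1 to 5. Both the highest and the lowest level of the series were thus in WASP-deficient lymphomas, on arrays 5 and 2. Its span of 5.10 was the widest of the 9 genes, and the SD was 1.92 in WASP-deficient against 0.59 in WASP-intact lymphomas. The difference in means was 0.82 (95% interval -0.95 to 2.58, limma adjusted p = 0.999), and it was 0.21 without WASP-deficient array 5, 1.49 without WASP-deficient array 2 and 1.32 with the Xist level as a covariate, none of which passed. No gene followed Ccr9 closely, the nearest being Tfpi, Cpm and Igfbp4 at root mean square differences of 0.74, 0.75 and 0.75.

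Cxcr4 encodes the receptor for CXCL12, which holds progenitors in the bone marrow and immature cells in the thymic cortex (probe set 10357472). It was at 10.92, 10.55, 10.70, 10.07 and 10.38 on WASP-deficient arrays 1 to 5, against 10.55, 10.60, 10.54, 10.55 and 10.47 on WASP-intact arrays 1 to 5. The WASP-intact arrays lay close together, inside the range of the WASP-deficient arrays. The difference was -0.02 (95% interval -0.33 to 0.29, limma adjusted p = 0.999). Its range of 10.47 to 10.92 on the Cd2-high arrays overlapped that of 10.07 to 10.70 on the Cd2-low arrays.

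Ccr4 encodes the receptor for CCL17 and CCL22, found on skin-homing, helper type 2 and regulatory T cells (probe set 10597420). It was at 7.64, 8.59, 8.39, 6.86 and 7.23 on WASP-deficient arrays 1 to 5, against 8.69, 8.44, 8.08, 7.30 and 7.36 on WASP-intact arrays 1 to 5. Values lay on both sides of 8 in each genotype, with WASP-deficient array 4 the lowest of all. The difference was -0.23 (95% interval -1.09 to 0.63, limma adjusted p = 0.999), and it did not pass within the Cd2-low arrays either, at -0.64. It was -0.01 without WASP-deficient array 4, -0.44 without WASP-deficient array 2 and -0.05 without WASP-intact array 1. On the Cd2-high arrays Ccr4 lay at 7.30 to 7.64, within the 6.86 to 8.69 of the Cd2-low arrays, although 5 of the 7 Cd2-low arrays were above every Cd2-high array.

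Ccr8 encodes a receptor of regulatory and helper type 2 T cells whose ligands in the mouse include CCL1 and CCL8 (probe set 10590242). It was at 5.24, 5.23, 5.60, 6.07 and 9.52 on WASP-deficient arrays 1 to 5, against 5.08, 5.46, 4.93, 4.92 and 4.88 on WASP-intact arrays 1 to 5. A single array thus carried a clear signal, and the other 9 lay between 4.88 and 6.07, below the filter level of 6.35. The difference in means was 1.28 over all arrays and 0.48 without WASP-deficient array 5, and with no filter the limma adjusted p was 0.999. The tested genes nearest to Ccr8 were Ccnd2, which encodes cyclin D2, Cntnap1 and L3hypdh, at root mean square differences of 0.55, 0.62 and 0.68. All 3 were highest on the same array, Ccnd2 at 11.51 against 7.86 to 9.98 on the other 9. This follows from choosing them by nearness to Ccr8, whose pattern is 1 high array, and is no separate result.

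S1pr1 encodes the sphingosine 1-phosphate receptor that T cells need to leave thymus and lymph nodes (probe set 10501586). It was at 7.74, 6.90, 7.39, 7.89 and 7.40 on WASP-deficient arrays 1 to 5, against 7.26, 7.24, 7.75, 7.54 and 7.50 on WASP-intact arrays 1 to 5. The lowest and the highest value were both from WASP-deficient lymphomas, and the whole span was 0.99. The difference was 0.01 (95% interval -0.39 to 0.41, limma adjusted p = 0.999), and it was -0.27 with the Xist level as a covariate, which did not pass. The Cd2-high arrays, at 7.50 to 7.74, lay within the 6.90 to 7.89 of the Cd2-low arrays.

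Klf2 encodes the quiescence factor that activates S1pr1 in T cells (probe set 10572800). It was at 7.89, 7.77, 7.88, 7.48 and 8.82 on WASP-deficient arrays 1 to 5, against 7.69, 7.71, 7.41, 7.66 and 7.82 on WASP-intact arrays 1 to 5. One array, WASP-deficient 5, stood 0.93 above the next, which is 1.90-fold in intensity, and the other 9 spanned 7.41 to 7.89. The difference was 0.31 (95% interval -0.17 to 0.79, limma adjusted p = 0.999), and it was 0.10 without WASP-deficient array 5 and 0.56 with the Xist level as a covariate, neither of which passed. S1pr1 was at 7.40 on the array with the highest Klf2, in the middle of its own range.

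WASP-deficient array 5 thus held the highest value of 3 of the 9 genes, Ccr8, Ccr9 and Klf2, and the lowest of Cd44. Over all genes tested 0.86% were highest on this array by at least 0.5 and 0.182% by at least 1. Of the 8 tested homing genes 2 (Ccr9 and Klf2) met the first margin and 1 (Ccr9) the second. This array was singled out by these same values, so the count is no separate result. Cd69, whose product removes S1PR1 from the cell surface, was at 9.33 there, against 5.60 to 7.97 on the other 9 arrays. Ccr10, the receptor for skin and mucosal chemokines, was at 7.25, against 6.13 to 6.58. On this array the summed level of 13 macrophage and monocyte markers was the lowest of the series, at 8371 against 9140 to 13718 on the others (linear intensity). Without Lyz2, the brightest of them, it was 6649, within the 6598 to 10553 of the other arrays. Adipocyte and muscle markers were also at their lowest there, at 1072 against 1197 to 2240 and at 764 against 795 to 5940. Without Fabp4, the brightest adipocyte marker, the adipocyte sum was 531, within the 484 to 1437 of the other arrays. Without Ckm, the brightest muscle marker, the muscle sum stayed the lowest, at 624 against 650 to 3957. Of the endothelial markers Pecam1 alone was highest on this array, at a log2 level of 10.66 against at most 10.16 elsewhere, and the other 9 had their lowest sum there, at 1861 against 1897 to 2515. The part of these cell types in the Ccr8, Ccr9 and Klf2 values was not tested. T cell markers summed to 21197, within the 18834 to 23681 of the other arrays.

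Cd44 encodes the hyaluronan receptor of activated and memory T cells, which immature thymocytes lose as they mature (probe set 10485405). It was at 10.43, 8.16, 7.77, 7.30 and 7.07 on WASP-deficient arrays 1 to 5, against 8.09, 8.27, 7.43, 10.22 and 10.15 on WASP-intact arrays 1 to 5. Values above 10 occurred on 1 WASP-deficient and 2 WASP-intact arrays. The difference was -0.69 (SE 0.73, 95% interval -2.31 to 0.94, limma adjusted p = 0.999). It was -0.36 within the Cd2-low arrays and turned to 0.47 with the Xist level as a covariate, and neither passed.

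The same arrays that were Cd2-high held the high Cd44 levels, at 10.15 to 10.43, against 7.07 to 8.27 on the Cd2-low arrays. The gap of 1.87 between them on the log2 scale, or 3.67-fold in intensity, was the widest of the 9 genes. Of all genes tested, 1.61% were higher on the Cd2-high arrays with a gap of at least 1. Nearest to Cd44 over the 10 arrays were Ubash3a, which encodes a brake on T cell receptor signalling, Apcdd1, an inhibitor of Wnt signalling, and Slc9a9, an ion exchanger of endosomes. Their root mean square differences from Cd44 were 0.24, 0.25 and 0.26. They were chosen by nearness to Cd44 on the same arrays, so their likeness to it is no separate result.

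Selplg encodes PSGL-1, the main selectin ligand of leukocytes (probe set 10532744). It was at 11.41, 10.71, 10.97, 11.11 and 10.97 on WASP-deficient arrays 1 to 5, against 10.98, 10.85, 11.26, 11.51 and 11.39 on WASP-intact arrays 1 to 5. The spread was small in both genotypes, with SDs of 0.25 in WASP-deficient and 0.28 in WASP-intact lymphomas. The difference was -0.17 (95% interval -0.52 to 0.18, limma adjusted p = 0.999). On the Cd2-high arrays Selplg lay at 11.39 to 11.51, just above the 10.71 to 11.26 of the Cd2-low arrays, with a gap of 0.13 or 1.09-fold.

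**Figure D2:**
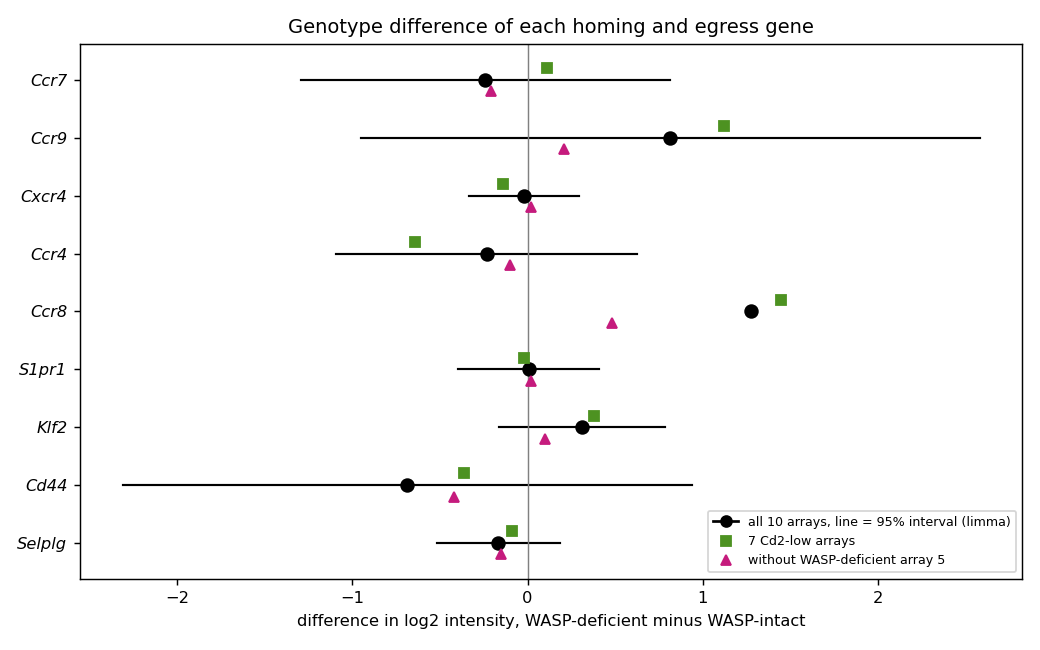
Difference in log2 intensity of each gene, WASP-deficient minus WASP-intact (horizontal axis), over all 10 arrays with the 95% interval of limma (black), within the 7 Cd2-low arrays (green squares) and without WASP-deficient array 5 (pink triangles); Ccr8 was not tested and has no interval. All 8 intervals include 0, and the value of Ccr8 is 1.28 over all arrays and 0.48 without WASP-deficient array 5.

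In all, 3 of the 8 tested homing genes (Ccr7, Cd44 and Selplg) were higher on every Cd2-high than on every Cd2-low array and 0 were lower. Over all genes tested 14.4% were higher and 16.1% lower in this way. Ccr8, below the filter, overlapped. The array split thus touched a large part of the transcriptome, and no statement particular to the homing genes is drawn from this count. Stromal markers moved with the split: 5 of 9 fibroblast genes (Col1a2, Pdgfra, Dcn, Lum and Fn1) did not overlap, and the list summed to 5553 to 9013 on the Cd2-high arrays, against 2624 to 4978 on the Cd2-low arrays (linear intensity). Fibroblasts can express Cd44, and their part in its level was not tested. Macrophage markers overlapped in sum, at 9372 to 11903 on Cd2-high and 8371 to 13718 on Cd2-low arrays, with 1 of 13 genes (Adgre1) higher. Dendritic cells, which can express Ccr7, had 8 markers that summed to 1398 to 3230 on Cd2-high and 1901 to 4289 on Cd2-low arrays, and 4 of the 8 (Flt3, Xcr1, Clec9a and Siglech) lay below the filter. Flt3 was higher on the Cd2-high arrays, at 6.62 to 6.76 against 5.86 to 6.52, and the part of dendritic cells in the Ccr7 level was not tested. B cell markers summed to 645 to 799 on Cd2-high against 547 to 785 on Cd2-low arrays, with Ms4a1, Cd79a and Pax5 below the filter. All 10 neutrophil markers and 6 of 8 NK cell markers lay below it, and no value is 0 on this intensity scale. Gzma, 1 of the 8 NK markers, was higher on the Cd2-high arrays, and that list summed to 1997 to 3620 there, against 747 to 1846 on the Cd2-low arrays. Gzma made up most of it, and the other 7 summed to 265 to 288 on Cd2-high and 242 to 284 on Cd2-low arrays.

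**Figure D3:**
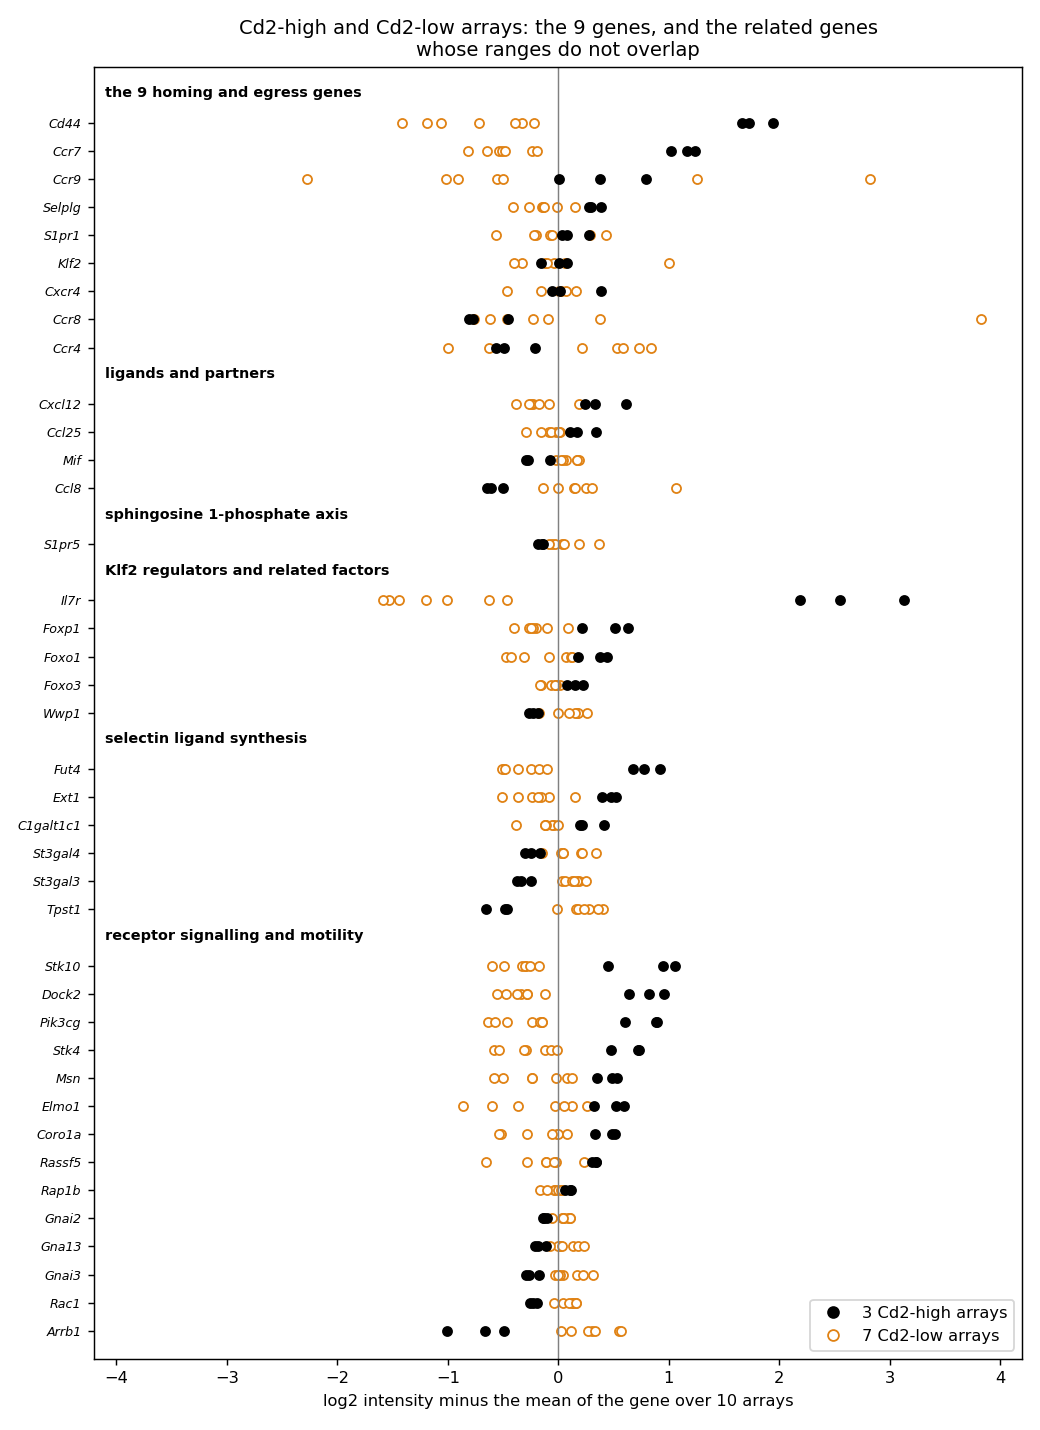
Log2 intensity minus the mean of each gene over 10 arrays (horizontal axis) for the 9 homing and egress genes and for the related genes tested whose ranges on the 3 Cd2-high (black) and 7 Cd2-low (open) arrays do not overlap, grouped by role. Cd44, Ccr7 and Il7r show wide gaps to the right, and Ccr8 and Ccr9 scatter within the Cd2-low arrays.

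Some marker sums lay unevenly between the genotypes, with ranges that overlapped. The 9 thymic epithelial markers summed to 1545 to 2637 on the WASP-deficient and to 1156 to 1658 on the WASP-intact arrays, and 7 adipocyte markers to 1072 to 1525 on the WASP-deficient and to 1437 to 2240 on the WASP-intact arrays. The 8 muscle markers summed to at most 868 in WASP-deficient lymphomas and, in WASP-intact lymphomas, to 5940 on array 4 and to between 795 and 1179 on the other 4 arrays. Macrophage and monocyte markers overlapped in sum, at 8371 to 13718 on the WASP-deficient and 9140 to 11722 on the WASP-intact arrays. Among them Fcgr3 and Lgmn did not overlap and were higher in WASP-deficient lymphomas, by 0.60 and 0.46 (limma adjusted p = 0.999 for each). Lyz2, the brightest of that list, differed by -0.04. Over all genes tested 0.568% did not overlap between the genotypes. The part of these cell types in the genotype values of the homing genes was not tested.

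**Figure D4:**
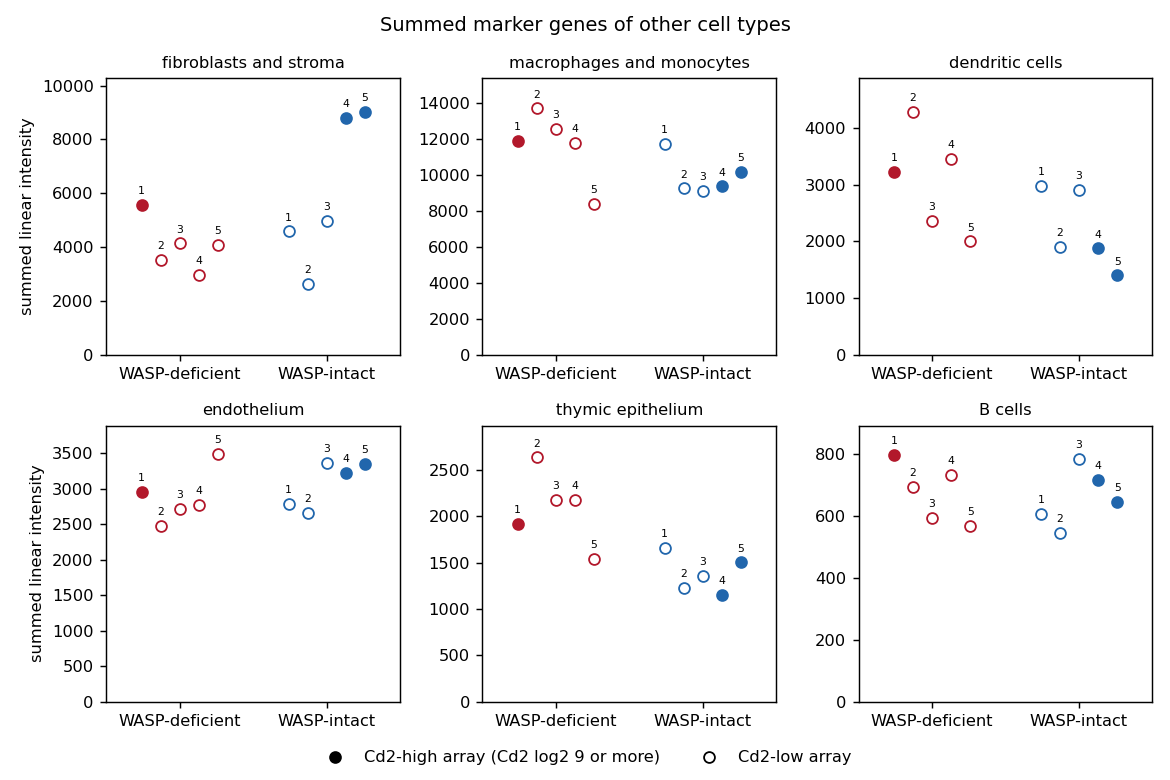
Summed linear intensity (vertical axis) of markers for 6 cell types other than T cells on the 5 WASP-deficient (red) and 5 WASP-intact (blue) arrays, numbered by replicate, with filled points for Cd2-high arrays. The fibroblast sum is highest on the 3 filled points, at 5553 to 9013.

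No ligand or partner of these receptors passed the genotype test. Of 18 such genes 12 had a probe set of their own and 7 were tested, of which 5 had values above 0 and 2 below, 0 passed limma and 0 had an unadjusted p under 0.05, with a median difference of 0.14. Cxcl12, the ligand of CXCR4, was at 6.55 ± 0.24 in WASP-deficient and 6.90 ± 0.32 in WASP-intact lymphomas (SD, n = 5 each), a difference of -0.35 (95% interval -0.73 to 0.02, limma adjusted p = 0.999). It was also higher on the Cd2-high arrays, at 6.97 to 7.34 against 6.34 to 6.92, as was Ccl25, at 8.18 to 8.42 against 7.78 to 8.09. Ccl8, a ligand of CCR8 in the mouse, was lower on the Cd2-high arrays, at 9.35 to 9.50 against 9.86 to 11.06. Mif, a cytokine that also binds CXCR4 and CD74, was lower there by a small margin, at 12.49 to 12.72 against 12.77 to 12.98. Of the 7 tested, 2 were thus higher and 2 lower on the Cd2-high arrays, beside 14.4% and 16.1% of all genes tested. Ccl17 differed between the genotypes by 0.37 (95% interval -0.38 to 1.12) and the endothelial selectin gene Sele by 0.14, neither of which passed, and Ccl22 and Ccl1 lay below the filter. Ccl21a had no probe set with a single symbol here and is not analysed.

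Probe sets of a ligand could disagree. For Ccl25, the ligand of CCR9, the probe set with the higher mean gave 8.06 ± 0.12 in WASP-deficient and 8.09 ± 0.23 in WASP-intact lymphomas (difference -0.03). The other gave 7.89 ± 0.32 in WASP-deficient and 7.27 ± 0.22 in WASP-intact lymphomas, a difference of 0.62, which had an unadjusted p of 0.00332 and did not pass when it stood for the gene (limma adjusted p = 0.999). Its ranges of 7.46 to 8.34 and 6.99 to 7.52 overlapped. Across the Cd2 split it overlapped as well, at 7.28 to 8.34 on Cd2-high and 6.99 to 7.96 on Cd2-low arrays. The 4 probe sets of Ccl19, a ligand of CCR7, gave differences between -0.15 and 0.35.

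Most other chemokine receptors were dim. Of 18 listed, 17 had a probe set and 5 were above the filter, with a median difference of 0.048. With limma 0 of the 5 passed and 1 had an unadjusted p under 0.05, beside 2.89% of all genes tested. That 1 was Cxcr3, the receptor for interferon-induced chemokines, at 6.52 ± 0.18 in WASP-deficient and 6.86 ± 0.31 in WASP-intact lymphomas (difference -0.34, limma adjusted p = 0.999). Ccr10 differed by 0.29 and the scavenging CXCL12 receptor Ackr3 by -0.16. None of the 5 separated the Cd2-high from the Cd2-low arrays, while over all genes tested 14.4% were higher and 16.1% lower in this way.

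No gene of the sphingosine 1-phosphate axis passed the genotype test. Of 18 listed, 13 were tested, 11 with values above and 2 below 0, and 0 passed limma or had an unadjusted p under 0.05, with a median difference of 0.13. The members of smallest p were Sgpl1, the lyase that keeps tissue levels low (0.25), the receptor S1pr2 (0.13) and the kinase Sphk1 (0.13). Cd69 differed by 0.38 (95% interval -0.84 to 1.61) and held both the highest value, on WASP-deficient array 5, and the lowest, on WASP-deficient array 2. Of the 13, 1 gene, S1pr5, was lower on the Cd2-high arrays, at 6.30 to 6.35 against 6.40 to 6.86, and 0 were higher. Over all genes tested 16.1% were lower and 14.4% higher in this way.

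Regulators of Klf2 and related factors included the gene with the widest Cd2 contrast of the lists. All 18 were tested, 7 with values above and 11 below 0, and 0 passed limma or had an unadjusted p under 0.05, with a median difference of -0.07. Foxo1, which activates Klf2 and Il7r in T cells, differed between the genotypes by -0.25 (95% interval -0.65 to 0.15), Klf4 by -0.16 and the kinase gene Map2k5, whose product acts upstream of Klf2, by -0.17. On the Cd2-high arrays 4 of the 18 were higher and 1 lower, beside 14.4% and 16.1% of all genes tested. Il7r, the interleukin 7 receptor chain, lay at 10.05 to 10.98 there against 6.27 to 7.39, Foxp1 at 10.43 to 10.84 against 9.81 to 10.30, and Foxo1 at 9.60 to 9.86 against 8.94 to 9.54. The lower gene was the ubiquitin ligase Wwp1, at 9.77 to 9.85 against 9.86 to 10.29. Klf2 itself, at 7.66 to 7.89 on Cd2-high and 7.41 to 8.82 on Cd2-low arrays, did not separate with Foxo1 or Il7r.

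Genes of selectin ligand synthesis, among them enzymes that glycosylate or sulfate PSGL-1 and related glycan enzymes and ligands, gave no call by genotype. Of 18 genes 12 were tested, 6 with values above and 6 below 0, and 0 passed limma or had an unadjusted p under 0.05, with a median difference of -0.02 and Chst2 (0.20), C1galt1 (-0.09) and Tpst2 (-0.09) at the smallest p. Across the Cd2 split 3 were higher and 3 lower on the Cd2-high arrays, beside 14.4% and 16.1% of all genes tested. Fut4, a fucosyltransferase, was at 7.93 to 8.17 on Cd2-high and 6.74 to 7.15 on Cd2-low arrays, and Ext1, an enzyme of heparan sulfate synthesis, at 8.82 to 8.94 against 7.91 to 8.57. The tyrosine sulfotransferase gene Tpst1 was lower, at 8.14 to 8.34 against 8.79 to 9.21. Gcnt4, a branching enzyme whose mean lay below the filter, was at 6.51 to 8.04 on Cd2-high and 5.19 to 5.98 on Cd2-low arrays.

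No signalling or motility gene downstream of the receptors passed the genotype test. All 31 were tested, 12 with values above and 19 below 0, with a median difference of -0.04. With limma 2 had an unadjusted p under 0.05, and over the 86 genes tested in the 6 lists 0 passed and 3 had such a p, near the 2.89% of all genes. The 2 were Elmo1, a partner of DOCK2 in Rac activation, at -0.56 (SE 0.23), and Dock8, an activator of CDC42, at -0.33 (SE 0.14), followed by the actin regulator Coro1a at -0.41 (limma adjusted p = 0.999 for each). Elmo1 and Coro1a also separated with Cd2, Elmo1 at 9.47 to 9.74 on Cd2-high and 8.28 to 9.41 on Cd2-low arrays and Coro1a at 11.14 to 11.32 against 10.27 to 10.89. In all, 9 of the 31 were higher and 5 lower on the Cd2-high arrays, beside 14.4% and 16.1% of all genes tested. The higher ones included Dock2, the main Rac activator in chemokine signalling of lymphocytes, at 10.75 to 11.07 on Cd2-high and 9.55 to 9.98 on Cd2-low arrays. Pik3cg, the lipid kinase coupled to chemokine receptors, was at 10.35 to 10.64 against 9.11 to 9.60, and Stk10, a kinase of ezrin, radixin and moesin, at 9.51 to 10.12 against 8.46 to 8.88. Arrb1, which encodes an arrestin that uncouples receptors, was lower, at 8.08 to 8.60 against 9.11 to 9.66.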

How the data were processed

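Values are probe set intensities as deposited, and the submitters' processing notes name RMA as the method that made them. This method corrects background, normalises quantiles over arrays and summarises probes, so array-wide differences in RNA amount cannot be read from the values. Since they spanned 3.309 to 15587.9 they were read as linear, and their log2 was taken. The sources used here give no software version, genome build or annotation. Of 34760 probe sets, 21640 had 1 gene symbol in the platform annotation, 1321 several and 11799 none. For each gene the probe set with the highest mean was kept, and genes with a mean under the 40th percentile of all probe sets (log2 6.35) were left out, which left 12670.

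Group and replicate number came from the sample titles. The labels call the replicates biological, so p-values measure spread between animals. Genotypes were compared with limma 3.58.1 in R 4.3.3 (lmFit and eBayes, no covariate), with Benjamini-Hochberg adjustment over all genes tested, at a threshold of 0.05 and 95% intervals, and the fit was tested on simulated data. Arrays split at a Cd2 log2 level of 9 were described without a test. Genes of the related lists were named if of smallest p in their list, if widest among those separated by Cd2, or if fixed by name. Those nearest to a homing gene that spanned at least log2 2 were named by root mean square difference. The homing genes and the lists were chosen with earlier results of these data known. Alternatives covered the filter, scale, normalization, probe sets, variance model, array weights, covariates and each array left out. Replicate numbers are shared between genotypes, and the labels name no pairing of the animals. Figures were drawn with matplotlib 3.10.9.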

Additional observations from a re-analysis of the deposited data

Results flagged for a closer look

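In each genotype, the 5 values of the homing genes and of the genes named by the rule above were screened for a single array far from the other 4. Dixon's criterion was used, which chance meets in about 1 of 20 groups. Genes mentioned outside that rule, such as Tnfrsf8, Ccl17 and most markers of cell types, were not screened. Of 120 groups 14 met it. That rate does not apply to Cd2, which defines the split. Nor does it apply to genes named because they separated the Cd2-high from the Cd2-low arrays or lay nearest to one that did. WASP-deficient array 1 is the single Cd2-high array of its genotype. WASP-deficient array 5 stood apart for Ccr8, at 9.52 against 5.23 to 6.07, and for Ccr10, at 7.25 against 6.39 to 6.58 on the other WASP-deficient arrays.

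WASP-deficient array 1, the single Cd2-high array of that genotype, stood apart for 10 genes. It was high for Ccr7 (9.46 against 7.75 to 8.05 on the other 4), Il7r (10.98 against 6.32 to 7.39), Gcnt4 (8.04 against 5.23 to 5.98), Fut4 (8.17 against 6.76 to 7.08), Dock2 (10.75 against 9.55 to 9.83) and Cxcl12 (6.97 against 6.34 to 6.50). It was likewise high for Cited4 (9.42), Tmem159 (8.11) and Cd2 itself (11.52), and low for Cd3d, a chain of the T cell receptor complex (6.47 against 8.96 to 9.73).

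WASP-intact array 3 stood apart from the other WASP-intact arrays for Xist (4.40 against 11.52 to 11.90) and for the Y-linked gene Kdm5d (8.68 against 4.61 to 5.51).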

How the results depend on the processing

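Under 23 alternatives 0 of the homing and egress genes and 0 genes of the related lists passed. Over all genes 1 passed (Was), and 0 did so with the replicate block and 0 with the Xist level as a covariate, 2 within the Cd2-low arrays (Was and Ybx3), and between 1 and 4 with 1 array left out. The 4 were reached without WASP-intact array 3 (Was, Xist, Uty and Kdm5d), and without WASP-deficient array 1 there were 2. The replicate block changed no call of a homing gene. Same-numbered arrays of the 2 genotypes correlated in their deviations from the group means between -0.71 and 0.37. Numbers 1, 4 and 5 each join a Cd2-high and a Cd2-low array and gave -0.71, -0.41 and -0.37. Numbers 2 and 3, all Cd2-low, gave 0.37 and 0.29. These values follow the Cd2 split, so they cannot decide whether the numbers pair the animals. Signs turned for 4 genes. Ccr7 (-0.24) was at 0.17 with array weights, 0.39 with the Xist covariate, 0.09 with the Cd2 block and 0.11 within the Cd2-low arrays, and lay between -0.56 and 0.04 with 1 array left out. S1pr1 (0.01) was at -0.03 with array weights, -0.27 with the Xist covariate and -0.02 within the Cd2-low arrays, and between -0.10 and 0.15 with 1 array left out. Cxcr4 (-0.02) was at 0.01 with the Cd2 block and between -0.12 and 0.09 with 1 array left out. Cd44 (-0.69) was at 0.47 with the Xist covariate and between -1.26 and -0.34 with 1 array left out. Ccr9, Ccr4, Ccr8, Klf2 and Selplg kept their sign under every alternative run. S1pr1 and Ccr8 gave no value with the filter at the 60th percentile. The ranges of 3 genes did not overlap across the Cd2 split under all 7 alternatives for filter, scale, normalization and probe sets. Most of these could not change whether the ranges of a gene overlap. Each homing gene had 1 probe set, the filter alters no value, and the change of scale keeps the order of the arrays. Only repeated quantile normalization and centring arrays on their medians could change it, and with each of them the count stayed at 3. The causes of the shifts in the genotype values were not tested.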
